A study of Homo sapiens with 6 samples.

Results

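The genes described here are 10 chemokines that epithelial cells can make, namely CXCL1, CXCL2, CXCL3, CXCL5, CXCL6, CXCL8, CXCL10, CXCL16, CXCL17 and CCL20. They were found by symbol in the gencode release 44 annotation, and all 10 were present among the 60676 gene identifiers of each deposited table. Transcripts were measured by RNA-seq in HT29, a wild-type human colon adenocarcinoma line, after 48 h in 3 conditions with 2 libraries each. Untreated cells were kept in control medium, histidine-depleted cells in medium without histidine, and tryptophan-depleted cells in medium without tryptophan. In the study, tryptophan depletion served as the control for a general response to amino acid stress. By the study's methods the histidine-free medium had an RPMI base, the one lacking tryptophan a DMEM F-12 base, and both received dialyzed serum, whereas HT29 cells were otherwise grown in DMEM with standard serum and full RPMI was the control in experiments of the study with a proteasome inhibitor. The composition of the control medium used for sequencing is not given in the sources used here, so the missing amino acid and the base medium cannot be told apart. The labels do not say whether the 2 libraries of a condition came from separate cultures, and the p-values then measure only the spread between these libraries, which may be technical.

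Chemokines are small secreted proteins that guide the migration of leukocytes along gradients. CXCL1, CXCL2, CXCL3, CXCL5, CXCL6 and CXCL8 carry a glutamate-leucine-arginine (ELR) motif, signal through CXCR2 and some of them also through CXCR1, and attract neutrophils. CXCL10 is an interferon-induced ligand of CXCR3 on T cells, CCL20 is the ligand of CCR6 on dendritic cells and lymphocytes, and CXCL17 is a mucosal chemokine. CXCL16 differs from the others in that it is made as a transmembrane protein, binds CXCR6 on T cells and is released as a soluble form by the protease ADAM10. Colonic epithelium makes many of these ligands after stimulation through interleukin-1, TNF or toll-like receptors, and their promoters are classical targets of NF-kB, AP-1 and C/EBP factors. Many of their transcripts carry AU-rich elements in the mRNA tail that mark them for rapid decay.

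The ELR chemokines and CXCL10 lie on human chromosome 4, in GRCh38 coordinates of gencode release 44. In this region CXCL8 (ENSG00000169429) is at chr4:73740519-73743716, CXCL6 (ENSG00000124875) at chr4:73836640-73849064 and CXCL1 (ENSG00000163739) at chr4:73869393-73871308, all on the plus strand. CXCL5 (ENSG00000163735) is at chr4:73995642-73998677, CXCL3 (ENSG00000163734) at chr4:74036589-74038807, CXCL2 (ENSG00000081041) at chr4:74097040-74099196 and CXCL10 (ENSG00000169245) at chr4:76021118-76023497, all on the minus strand. The other members are elsewhere, with CXCL16 (ENSG00000161921) at chr17:4733533-4739928 on the minus strand, CXCL17 (ENSG00000189377) at chr19:42428278-42442946 on the minus strand and CCL20 (ENSG00000115009) at chr2:227805739-227817564 on the plus strand. All are protein-coding genes, and reads were counted on their exons. CXCL1, CXCL2 and CXCL3 are close relatives, but of their stretches of 100 transcript bases only 5.34% in CXCL2 and 3.27% in CXCL3 were identical between those genes, and none of CXCL1 was shared with another gene. For CXCL5, 6.03% of such stretches also belonged to an unnamed gene on the opposite strand (ENSG00000287037), and 4.61% of the exonic bases of CXCL6 overlapped the pseudogene PPBPP1 on the same strand. Of the exonic bases of CXCL16, 6.16% overlapped MED11 or ZMYND15 on the opposite strand. The libraries were stranded, but the sources used here do not say whether the counting used strand.

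The promoters are shown because a shared NF-kB sequence runs through most of them, and its part in the chemokine values was not tested. RefSeq promoters (GRCh38.p14) were found for 9 of the 10 members, with CXCL16 not among them. The sequences below are 60 bases long, 5′ to 3′ on the strand of the gene, and run from 100 to 41 bases before the transcription start, except for CXCL10, whose window runs from 225 to 166 bases before it. Capitals mark matches to the NF-kB letters GGGNNNNNCC or GGAATTTCC or, in CXCL10 only, also the interferon response letters GAAANNGAAA (the run that begins with GAAAG), each sought on both strands.
CXCL1: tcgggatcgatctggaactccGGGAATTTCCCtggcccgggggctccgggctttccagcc
CXCL2: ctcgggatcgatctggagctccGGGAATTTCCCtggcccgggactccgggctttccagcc
CXCL5: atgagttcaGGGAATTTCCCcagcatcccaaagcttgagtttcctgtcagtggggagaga
CXCL6: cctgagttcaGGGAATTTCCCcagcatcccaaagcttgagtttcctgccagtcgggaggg
CXCL8: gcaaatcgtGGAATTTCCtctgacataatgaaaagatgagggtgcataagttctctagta
CXCL10: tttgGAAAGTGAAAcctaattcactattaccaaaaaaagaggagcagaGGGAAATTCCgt
CCL20: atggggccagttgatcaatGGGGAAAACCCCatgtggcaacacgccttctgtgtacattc

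The windows are chr4:73869293-73869352 for CXCL1, chr4:74099236-74099295 for CXCL2, chr4:73998718-73998777 for CXCL5, chr4:73836578-73836637 for CXCL6, chr4:73740469-73740528 for CXCL8, chr4:76023663-76023722 for CXCL10 and chr2:227813742-227813801 for CCL20. In the 250 bases before the start, the loose NF-kB letters GGGNNNNNCC were found in 8 of the 9 members, but also in 54.4% of all 35116 RefSeq promoters. The exact letters GGAATTTCC, which overlap most of the matches in capitals, were found in 7 of the 9 members (CXCL1, CXCL2, CXCL3, CXCL5, CXCL6, CXCL8 and CXCL10) and in 0.413% of all promoters. These exact letters were searched after the promoters had been seen. The match began 78 bases before the start in CXCL1 and CXCL3, 77 in CXCL2, 89 in CXCL6, 90 in CXCL5, 91 in CXCL8 and 176 in CXCL10. AP-1-like letters TGANTCA were found in CXCL8 alone of the members and in 6.57% of all promoters, and the interferon response letters in CXCL10 alone and in 3.02%. TATAAA was found in CXCL8 and CCL20 and in 10.7% of all promoters. The CXCL17 promoter held none of these 5 sequences. Members whose promoters are near copies, such as CXCL1 and CXCL2 or CXCL5 and CXCL6, are not independent examples, and a match describes letters, not a bound site.

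The libraries held 46390819 to 64388876 reads on genes, and 3 reads, taken as the floor, stood for 0.0466 to 0.0647 RPM (reads scaled to the library total). Intervals below for a share or a ratio of reads cover counting error only. Of the 10 colon epithelial markers, 9 had over 100 reads in every library and the list summed to 8847 to 11700 RPM. CDX1 had 19 to 20 reads in untreated cells, 0 after histidine depletion and 3 to 5 after tryptophan depletion. The epithelial markers moved both ways, with 5 called higher and 5 lower without histidine (39.1% and 38.2% of all tested genes). Without tryptophan 5 were higher and 2 lower (36.1% and 34.8%). CDX1 reached the filter for testing, a mean of 10 normalized counts, only through the untreated libraries, where it was higher. A call of CDX1 is therefore not support for a count. KRT19 had 18148 and 21573 reads in untreated cells and 63791 and 61284 without histidine, and LGALS4 49540 and 56770, then 19384 and 19322. Their part in the chemokine values was not tested. The leukocyte markers PTPRC, CD3E and CD68 had 0 to 3 reads, TPSAB1 and FCER1A had 0, and the sum of that list (217 to 1330 RPM) was nearly all LYZ, which intestinal epithelium also expresses. Of the other markers, CD14 had 56 to 62 reads without histidine, 95 to 120 in untreated cells and 356 to 401 without tryptophan, ITGAM 95 to 114, 60 to 77 and 4 to 12 in that order, and CSF1R 39 to 41, 6 and 6 to 10. Of the tested leukocyte markers 2 of 4 were higher and 2 lower without histidine, beside 39.1% and 38.2% of all tested genes. CSF1R reached the filter there only through the histidine-depleted libraries, where it was higher. Without tryptophan 1 of 3 was higher and 2 lower, beside 36.1% and 34.8%. ITGAM reached the filter in that comparison only through the untreated libraries, where it was higher. Calls of CSF1R and ITGAM of this kind are not support for a count. The part of the leukocyte markers in the chemokine values was not tested. The stromal and endothelial markers summed to 1.46 to 2.61 RPM, with COL1A2 at 0 in all 6 libraries. Within that list VWF had 4 to 7 reads in untreated cells, 40 to 47 without histidine and 8 to 9 without tryptophan, PECAM1 37 to 44, 9, and 19 to 20, and COL1A1 61 to 70, 30 to 35, and 48 to 67, and their part in the chemokine values was not tested.

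In untreated HT29 cells CXCL16 was the most abundant of the 10 chemokines by a wide margin. Scaled per kilobase of exon as well (RPKM), CXCL16 reached 7.09 and 7.19 in the 2 libraries, which placed its mean above 73.7% of the 19892 protein-coding genes. CXCL8, the neutrophil chemokine also known as interleukin-8, followed at 1.51 and 1.60 RPKM, and CXCL1 came next at 1.00 and 1.16. CXCL3 (mean 0.999 RPKM), CXCL17 (0.788), CXCL2 (0.654), CCL20 (0.470), CXCL10 (0.288) and CXCL6 (0.193) were lower. From CXCL1 down to CXCL6 the counting interval of each gene overlapped that of its neighbor, so the order of neighbors there was not resolved, although that of CXCL1 lay wholly above those of CXCL2, CCL20, CXCL10 and CXCL6. CXCL5 had no read in either untreated library, and its exact counting intervals there reach up to 0.0795 and 0.0701 RPM.

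CXCL16 was higher and CXCL3 lower in both depletions, while CXCL8 and CCL20 were called lower without tryptophan. With genes filtered at a mean of 10 normalized counts, 9 of the 10 members could be tested in each comparison (limma on log2(normalized count + 1), Benjamini-Hochberg adjusted p under 0.05), and CXCL5 could not. CXCL6 and CXCL17 passed the filter only through the untreated libraries, where they were higher, so their calls are not support for a count. After histidine depletion 1 member was higher (CXCL16) and 4 were lower (CXCL1, CXCL3, CXCL6 and CXCL17), against a background of 39.1% of all tested genes called higher and 38.2% called lower. After tryptophan depletion 1 member was higher (CXCL16) and 6 were lower (CXCL1, CXCL3, CXCL6, CXCL8, CXCL17 and CCL20), where 36.1% of all tested genes were called higher and 34.8% lower. The median log2 difference of the 9 tested members was -0.36 after histidine depletion and -1.84 after tryptophan depletion, beside medians of 0.01 over all tested genes in each comparison. The member medians include CXCL6 and CXCL17, so they are not support for a shift of the list either. In the direct comparison of the depletions, which is also the test of whether their effects differ, 5 members were higher without histidine than without tryptophan (CXCL1, CXCL6, CXCL8, CXCL16 and CCL20) and 1 was lower (CXCL17), where 38.7% of all tested genes were called higher and 38.0% lower. Both depletions were set against the same untreated libraries, so their values are given side by side and not correlated. In bulk RNA, fewer cells with a transcript and less of it per cell cannot be told apart.

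**Figure D1:**
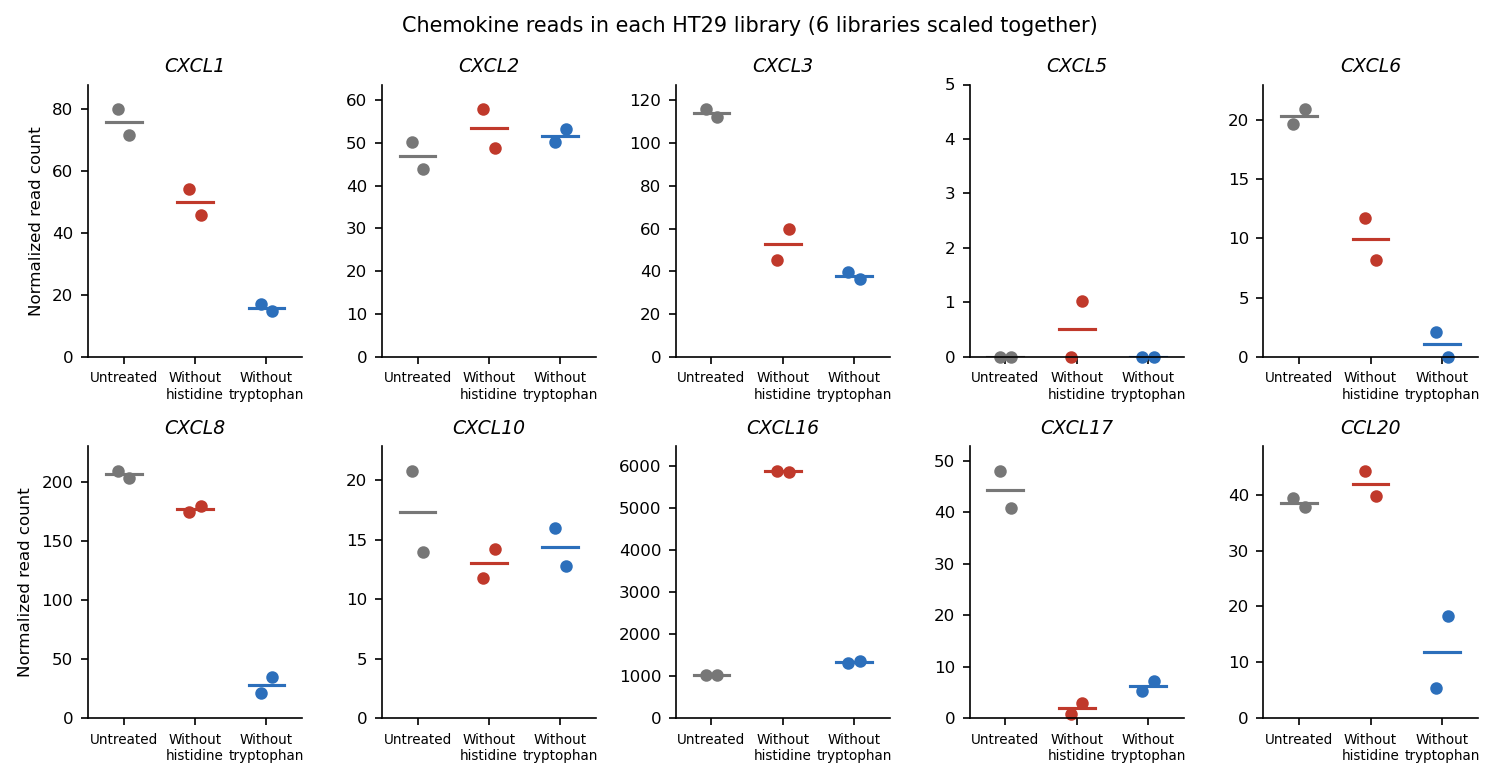
Normalized read counts of the 10 chemokines in each of the 6 HT29 libraries, brought to 1 scale with median-of-ratios factors. Each point is a library, each bar the mean of 2 libraries, every vertical axis starts at 0 and has its own range. CXCL16 lies between 5851 and 5882 in both histidine-depleted libraries and at 1368 or below in the other 4, whereas CXCL8 lies at 21.3 and 34.8 in the tryptophan-depleted libraries and at 175 or above in the other 4.

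**Figure D2:**
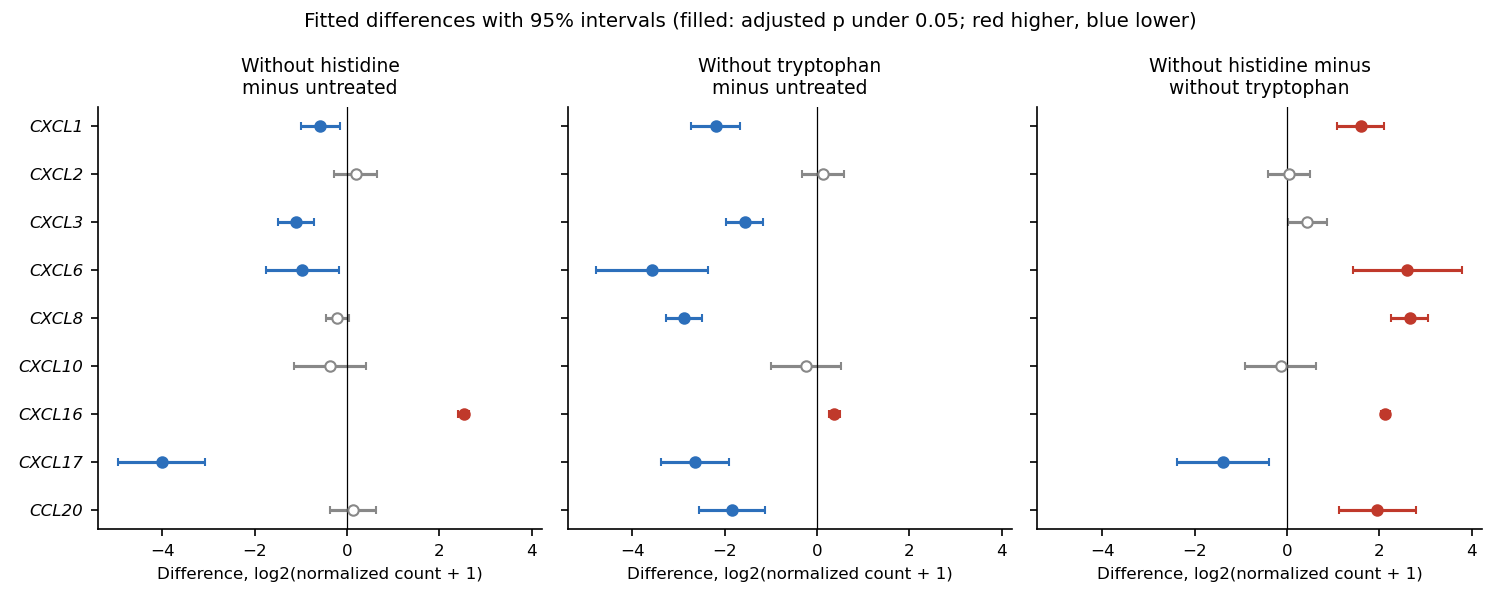
Fitted differences on the log2(normalized count + 1) scale with 95% intervals for the 9 tested members, for histidine depletion against untreated, tryptophan depletion against untreated, and histidine against tryptophan depletion. Filled points passed the adjusted threshold of 0.05 and open points did not, and CXCL16 is the only member to the right of 0 and past the threshold in both depletions, at 2.52 and 0.37.

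CXCL16, the membrane-bound ligand of CXCR6, rose strongly when histidine was absent and slightly when tryptophan was absent. It had 932 and 1041 reads in untreated cells, 6510 and 5750 without histidine, and 1223 and 1494 without tryptophan. The histidine-depleted libraries stood far above all the others, and the tryptophan-depleted libraries were above the untreated ones without overlap on the normalized scale. In normalized counts CXCL16 went from 1019 ± 14.5 (SD, n = 2) in untreated cells to 5854 ± 40.3 (SD, n = 2) after histidine depletion, a 5.75-fold level with an interval of 5.32 to 6.20 (log2 difference 2.52, SE 0.05, adjusted p = 3.72e-22 by limma). After tryptophan depletion the level was 1.29-fold that of untreated cells, with an interval of 1.19 to 1.41 (log2 difference 0.37, SE 0.06, adjusted p = 2.79e-08 by limma). The direct comparison put CXCL16 4.39-fold higher without histidine than without tryptophan, with an interval of 4.10 to 4.70 (adjusted p = 1.16e-16 by limma). Its mean RPKM of 36.0 after histidine depletion lay above 94.3% of protein-coding genes, beside 8.80 RPKM and 78.2% after tryptophan depletion.

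Among the ELR chemokines, CXCL8 separated the depletions most clearly. It had 192 and 205 reads in untreated cells, 194 and 177 without histidine, and 20 and 38 without tryptophan. Both tryptophan-depleted libraries were far below the other 4, and the histidine-depleted libraries were slightly below the untreated ones once scaled, without overlap. The level after tryptophan depletion was 7.40-fold lower than in untreated cells (27.5 ± 9.47 against 203 ± 4.12 normalized counts, SD, n = 2 each), with a log2 difference of -2.88 (SE 0.20, adjusted p = 3.29e-29 by limma). After histidine depletion the log2 difference was -0.21 with an interval of -0.46 to 0.04 (adjusted p = 0.120 by limma), which did not pass. That call passed with the mean-variance trend off (adjusted p = 0.0351) and with scaling by RPM (-0.40, adjusted p = 0.00765). CXCL8 was 6.33-fold higher without histidine than without tryptophan (log2 difference 2.66, SE 0.19, adjusted p = 7.79e-10 by limma).

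CXCL1, the growth-regulated chemokine GRO-alpha, fell in both depletions and further without tryptophan. It had 73 and 72 reads in untreated cells, 60 and 45 without histidine, and 16 in each library without tryptophan. The 3 groups did not overlap. The log2 difference was -0.58 (SE 0.20, adjusted p = 0.0126 by limma) without histidine and -2.19 (SE 0.27, adjusted p = 1.03e-12) without tryptophan, and the direct comparison gave 1.60 (SE 0.24, adjusted p = 8.99e-06). The call after histidine depletion was lost without untreated replicate 1 (adjusted p = 0.0780), without histidine-depleted replicate 2 (0.0965) and with DESeq2 (0.118).

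CXCL3, the close relative GRO-gamma, fell in both depletions. It had 106 and 113 reads in untreated cells, 50 and 59 without histidine, and 37 and 40 without tryptophan. Every depleted library was below both untreated libraries. CXCL3 was 2.16-fold lower without histidine (log2 difference -1.11, SE 0.19, adjusted p = 1.2e-05 by limma) and 3.02-fold lower without tryptophan (log2 difference -1.57, SE 0.20, adjusted p = 7.56e-12). The depletions differed from each other by 0.44 with an interval of 0.02 to 0.87 (adjusted p = 0.0557 by limma), which did not pass, but it passed with the trend off (adjusted p = 0.0477), with a mean of at least 50 (0.0479) and without histidine-depleted replicate 1 (0.65, adjusted p = 0.0211), and was 0.24 (adjusted p = 0.373) without histidine-depleted replicate 2.

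CXCL2, the third relative (GRO-beta), did not follow them. It had 46 and 44 reads in untreated cells, 64 and 48 without histidine, and 47 and 58 without tryptophan. The groups overlapped in normalized counts in all 3 comparisons. The log2 difference was 0.19 with an interval of -0.28 to 0.65 without histidine, and 0.13 with an interval of -0.33 to 0.59 without tryptophan (adjusted p = 0.457 and 0.634 by limma). The upper and lower bounds correspond to a 1.57-fold and a 0.825-fold level without histidine, and to a 1.5-fold and a 0.794-fold level without tryptophan. The CXCL2 and CXCL1 promoters carry the same NF-kB letters at 77 and 78 bases before the start, and only CXCL1 was called in either depletion. The 2 genes were not tested against each other, and without histidine their intervals overlapped (-1.01 to -0.16 for CXCL1). The part of these letters in the values was not tested.

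CXCL6, a chemokine most like CXCL5, was present at few reads and fell. It had 18 and 21 reads in untreated cells, 13 and 8 without histidine, and 2 and 0 without tryptophan. The 3 groups did not overlap. As RPM pooled over the libraries of a group, CXCL6 was 21.7-fold lower without tryptophan, with a counting interval of 5.63 to 186, and the fitted log2 difference was -3.58 (SE 0.61, adjusted p = 1.01e-07 by limma). Without histidine it was 2.29-fold lower, with a counting interval of 1.31 to 4.09, and the fitted log2 difference was -0.97 (SE 0.38, adjusted p = 0.0246). That call held in only 8 of 14 alternatives. It was lost without untreated replicate 1 (adjusted p = 0.0556), untreated replicate 2 (0.0792) or histidine-depleted replicate 2 (0.133), with no filter (0.0600), in the fit of all 6 libraries (0.119) and with DESeq2 (0.193). The fitted sizes of such low counts depend on the pseudocount, and the difference without tryptophan was -1.64 with a pseudocount of 8, -4.39 without tryptophan-depleted replicate 1 and -2.77 without replicate 2 of that group. CXCL6 was higher without histidine than without tryptophan (log2 difference 2.61, SE 0.56, adjusted p = 0.000417 by limma), and the difference was 3.43 without tryptophan-depleted replicate 1, 1.78 without replicate 2 of that group and 0.99 with a pseudocount of 8, each past the threshold. CXCL5 itself had 1 read in a histidine-depleted library and 0 in the other 5, and any change in it was not detectable at this depth.

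CCL20, the CCR6 ligand, was lowered only by tryptophan depletion among the 2 tests against untreated cells, and the difference between the depletions passed its own test. It had 36 and 38 reads in untreated cells, 49 and 39 without histidine, and 5 and 20 without tryptophan. Both tryptophan-depleted libraries were below the other 4 but differed from each other. The log2 difference without tryptophan was -1.84 (SE 0.36, adjusted p = 2.37e-06 by limma), and it was -1.04 (adjusted p = 0.00844) without tryptophan-depleted replicate 1, the lower library, and -2.65 without replicate 2 of that group. That call was lost with the trend off (adjusted p = 0.0705). Without histidine the log2 difference was 0.13 with an interval of -0.37 to 0.63 (adjusted p = 0.644). CCL20 was 3.55-fold higher without histidine than without tryptophan (log2 difference 1.96, SE 0.39, adjusted p = 0.000232 by limma), and the log2 difference was 1.15 (adjusted p = 0.00323) without tryptophan-depleted replicate 1 and 2.76 without replicate 2 of that group.

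CXCL17 fell to a few reads in both depletions. It had 44 and 41 reads in untreated cells, 1 and 3 without histidine, and 5 and 8 without tryptophan. All depleted libraries were far below the untreated ones, and the histidine-depleted libraries were the lowest. As pooled RPM CXCL17 was 26.2-fold lower without histidine, with a counting interval of 9.86 to 98.3, and 7.29-fold lower without tryptophan, with a counting interval of 4.04 to 14.3. The fitted log2 differences were -4.02 (SE 0.46, adjusted p = 2.28e-08 by limma) and -2.64 (SE 0.37, adjusted p = 1.70e-10), and the former was -2.39 with a pseudocount of 8. CXCL17 was the only member lower without histidine than without tryptophan (log2 difference -1.39, SE 0.47, adjusted p = 0.0129 by limma), on 4 reads against 13. This call was lost without histidine-depleted replicate 1 (-0.84, adjusted p = 0.118), without tryptophan-depleted replicate 2 (-1.19, adjusted p = 0.0795), with DESeq2 (adjusted p = 0.101) and with a pseudocount of 8 (-0.53, adjusted p = 0.0577).

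CXCL10, the interferon-induced CXCR3 ligand, stayed between 13 and 19 reads in all 6 libraries. It had 19 and 14 reads in untreated cells, 13 and 14 without histidine, and 15 and 14 without tryptophan. In normalized counts the untreated libraries, at 20.6 and 13.8, overlapped both depleted groups. The log2 difference was -0.36 with an interval of -1.14 to 0.42 without histidine, and -0.24 with an interval of -1.01 to 0.53 without tryptophan (adjusted p = 0.387 and 0.589 by limma). Changes within those intervals were not detectable at these counts.

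The balance between the chemokines shifted accordingly. CXCL16 made up 63.6% and 65.5% of the reads of all 10 members in the untreated libraries, 93.6% in both histidine-depleted libraries, and 89.3% and 88.5% in the tryptophan-depleted ones. The lowest exact binomial bound was 93.0% after histidine depletion and 86.9% after tryptophan depletion, and the highest was 67.8% in untreated cells. The 9 other members together had 11.5 and 10.4 RPM in untreated cells, 6.90 and 6.84 without histidine, and 2.89 and 3.26 without tryptophan. Thus the larger CXCL16 share came with more CXCL16 and fewer other reads without histidine, and mostly with fewer other reads without tryptophan. Within the 6 ELR chemokines CXCL8 took 44.1% and 45.1% of the reads in untreated cells, 50.9% and 52.4% without histidine, and 16.4% and 25% without tryptophan. These are shares of reads, not of molecules, since the transcripts differ in length.

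**Figure D3:**
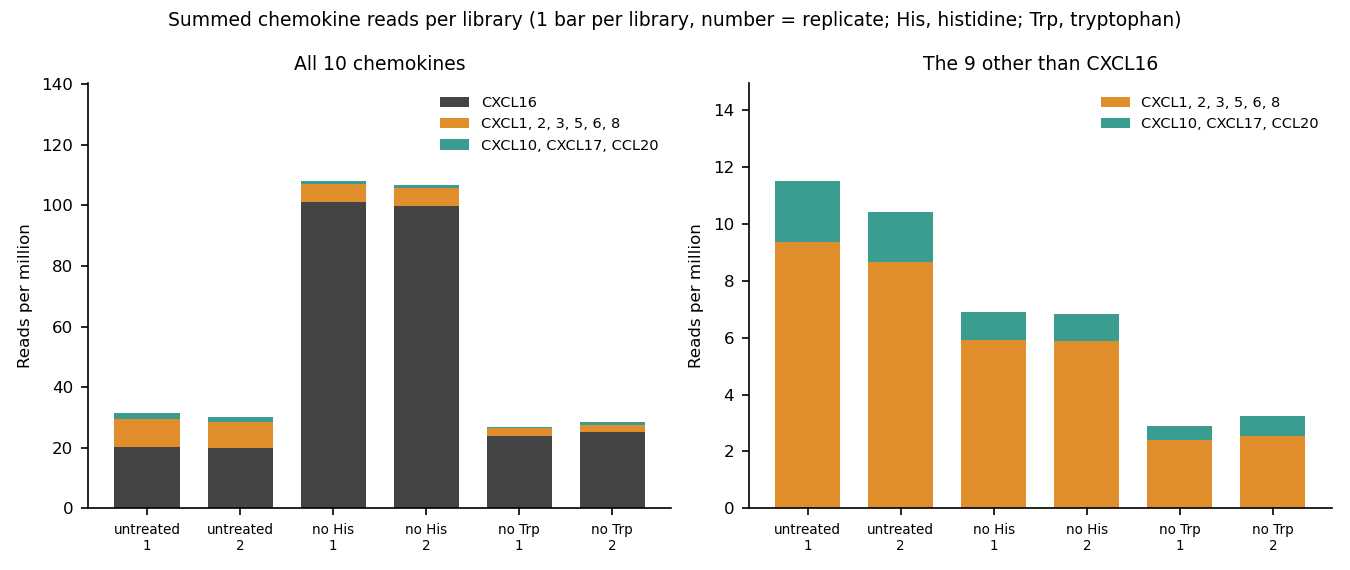
Summed RPM of the chemokines in each library, as bars that start at 0, for all 10 members (left) and for the 9 other than CXCL16 (right). CXCL16 takes 93.6% of the reads in each histidine-depleted library, and the 9 others fall from 11.5 and 10.4 RPM in untreated cells to 2.89 and 3.26 after tryptophan depletion.

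The remaining chemokine genes were mostly silent. Of 35 other chemokines, 9 could be tested after histidine depletion, with 3 higher and 1 lower, and 7 after tryptophan depletion, with 1 higher and 2 lower, beside shares of all genes of 39.1% and 38.2%, and 36.1% and 34.8%. The genes higher without histidine were CCL14, with 7 and 10 reads in untreated cells and 94 and 66 without histidine, CCL16, with 1 and 0 reads and then 24 and 25, and CCL15 (0.66, SE 0.27, adjusted p = 0.0321). CCL14 and CCL16 passed the filter only through the histidine-depleted libraries, where they were higher, and 2 in place of 3 were called higher with quantile normalization, RPM scaling or DESeq2. CCL22 was the gene called higher without tryptophan (0.76, SE 0.29, adjusted p = 0.0157), and with DESeq2 0 were higher and 1 lower there. CXCL11, which shares the receptor CXCR3 with CXCL10, had 39 and 61 reads in untreated cells, 72 and 68 without histidine, and 15 and 10 without tryptophan. It fell by 1.99 on the log2 scale without tryptophan (SE 0.32, adjusted p = 1.33e-08 by limma) and was higher without histidine than without tryptophan by 2.37 (SE 0.29, adjusted p = 7.69e-07), while its difference without histidine was 0.40 (adjusted p = 0.0967). CXCL9, the third CXCR3 ligand, had 0 to 4 reads and was not tested. CX3CL1, which like CXCL16 is a transmembrane chemokine, moved the opposite way to it, with a log2 difference of -1.85 (SE 0.29, adjusted p = 3.64e-06) without histidine and -0.87 (SE 0.26, adjusted p = 0.00200) without tryptophan. CCL28, a mucosal chemokine that attracts IgA plasma cells, stayed between 118 and 145 reads, with log2 differences of 0.01 and -0.14 that did not pass (adjusted p = 0.95 and 0.407).

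Of the 23 chemokine receptors listed, 4 could be tested in each comparison, and the known receptors of the members had few reads. CXCR1 had 0 to 1 reads, CXCR2 0 to 3 and CCR6 0 to 1 in the 6 libraries, and CXCR3 went from 14 and 18 reads in untreated cells to 1 to 3 in the depleted ones. CXCR6, the receptor of CXCL16, had 19 and 24 reads in untreated cells, 20 and 12 without histidine and 11 and 7 without tryptophan, and in the tryptophan comparison it passed the filter only through the untreated libraries. Of the 4 tested receptors 1 was higher and 2 lower without histidine, beside 39.1% and 38.2% of all tested genes. Without tryptophan 2 were higher and 2 lower, beside 36.1% and 34.8%, and with DESeq2 1 was higher and 1 lower there. By contrast CXCR4, the receptor of CXCL12, had 2598 and 3046 reads in untreated cells, 97 and 131 without histidine, and 138 and 128 without tryptophan. Its log2 difference was -4.74 (SE 0.12, adjusted p = 7.32e-21) and -4.48 (SE 0.08, adjusted p = 3.51e-95), and the depletions did not differ past the threshold (-0.28, adjusted p = 0.0953). CXCL12 itself had no read in any library. CCRL2, a non-signaling receptor that binds the chemoattractant chemerin, rose from 157 and 185 reads to 626 and 528 without histidine and to 336 and 401 without tryptophan (log2 differences of 1.64 and 1.02, SE 0.10 and 0.11, adjusted p = 2.34e-13 and 1.45e-15).

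The transcripts of NF-kB subunits and their feedback inhibitors were higher after histidine depletion for all 13 genes tested, with a median log2 difference of 1.42, beside 39.1% of all genes called higher. TNFAIP3, which encodes the feedback inhibitor A20, went from 160 and 155 reads in untreated cells to 4331 and 3459 without histidine, but to 81 and 98 without tryptophan. Its log2 differences were 4.50 (SE 0.08, adjusted p = 1.19e-23 by limma) and -0.90 (SE 0.15, adjusted p = 1.07e-07). Without histidine RELB rose by 2.76, NFKBIE by 2.60, NFKB2 by 2.29, NFKB1 by 1.42, NFKBIA by 1.32 and NFKBIZ by 0.45 on the log2 scale. After tryptophan depletion 8 of the 13 were higher (6 with RPM scaling or DESeq2) and 3 lower, beside 36.1% and 34.8% of all genes, with a median of 0.18, and the largest increase that passed was NFKBIB at 0.59, while NFKB1 fell by 0.52. NFKBIA, itself a direct NF-kB target, rose by 0.27 there, RELB by 0.49 and NFKBIZ by 0.53. In the direct comparison 12 of the 13 were higher without histidine, beside 38.7% of all genes.

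Of the AP-1 and C/EBP factors, which bind the CXCL8 promoter together with NF-kB, 5 of 9 were higher and 1 lower without histidine (5 and 3 with RPM scaling), and 6 higher and 1 lower without tryptophan, against 39.1% and 38.2% of all genes in the former and 36.1% and 34.8% in the latter. FOSB (log2 difference 3.12, SE 0.06), FOSL1 (2.79, SE 0.05) and JUN (1.64, SE 0.05) led without histidine, and CEBPD (1.71, SE 0.10), CEBPB (1.19, SE 0.05) and JUNB (0.78, SE 0.05) without tryptophan, where JUN fell by 0.61. Of the 5 interferon factors, 4 were higher without histidine (2 with RPM scaling), led by IRF1 (1.90, SE 0.05) and IRF7 (1.86, SE 0.07), and all 5 without tryptophan, led by IRF7 (1.26, SE 0.06), IRF9 (1.04, SE 0.17) and STAT2 (0.86, SE 0.05).

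The regulators of chemokine mRNA decay moved in both directions. Of the 8 genes, 4 were higher and 4 lower without histidine, and 5 higher and 3 lower without tryptophan, beside the 39.1% and 38.2% of all genes without histidine and the 36.1% and 34.8% without tryptophan given above. ZFP36, which encodes the AU-rich element binding protein tristetraprolin, rose by 1.12 (SE 0.05) without histidine and by 0.48 (SE 0.05) without tryptophan. ZC3H12A, which encodes the endonuclease regnase-1, rose by 1.03 (SE 0.06) and 0.34 (SE 0.06), and DUSP1, a phosphatase that restrains p38 signaling, by 3.0 (SE 0.06) and 1.05 (SE 0.07). HNRNPD, the AU-binding factor AUF1, fell by 0.25 (SE 0.05) without histidine and by 0.99 (SE 0.05) without tryptophan, and ELAVL1, the stabilizing factor HuR, fell by 0.85 (SE 0.05) and 0.36 (SE 0.05). ZFP36L2, another decay factor, fell by 1.14 (SE 0.06) without histidine and rose by 0.18 (SE 0.05) without tryptophan, and KHSRP fell by 0.65 (SE 0.05) in the latter.

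Of 19 receptors for chemokine-inducing signals, 14 were tested, with 5 higher and 6 lower without histidine and 8 higher and 3 lower without tryptophan, beside 39.1% and 38.2% of all genes without histidine and 36.1% and 34.8% without tryptophan. With DESeq2 5 of them were higher without tryptophan, and with RPM scaling 3 were higher without histidine. TLR4, the endotoxin receptor, had 94 and 125 reads in untreated cells, 325 and 274 without histidine, and 20 and 25 without tryptophan, with log2 differences of 1.34 (SE 0.13, adjusted p = 1.68e-09) and -2.31 (SE 0.23, adjusted p = 2.04e-17). IL1RAP, the accessory chain of the interleukin-1 receptor, rose by 1.44 (SE 0.08) and 0.45 (SE 0.09), while IL22RA1, the interleukin-22 receptor, fell by 1.70 (SE 0.06) without histidine and rose by 0.44 (SE 0.05) without tryptophan, and NOD1, a bacterial peptidoglycan sensor, fell by 1.18 (SE 0.14) without histidine and by 0.63 (SE 0.11) without tryptophan. TNFRSF1A was lower without histidine than without tryptophan by 1.08 (SE 0.04) on the log2 scale. Of the inducing ligands, LTB, which encodes lymphotoxin beta, had 21 and 32 reads in untreated cells, 226 and 171 without histidine, and 12 and 9 without tryptophan (log2 differences of 2.77 and -1.32, SE 0.20 and 0.38, adjusted p = 6.34e-12 and 0.00110). TNF had 6 and 1 reads in untreated cells, 23 and 18 without histidine and 4 and 0 without tryptophan, and passed the filter only through the histidine-depleted libraries, while IL1B had 0 to 6 reads in all libraries.

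Of 5 genes that release, trim or hold chemokines at the cell surface, 2 were higher and 3 lower without histidine, and 3 higher and none lower without tryptophan, beside 39.1% and 38.2%, and 36.1% and 34.8%, of all genes. ADAM10, the CXCL16 sheddase, fell by 0.45 on the log2 scale without histidine (SE 0.05, adjusted p = 9.50e-09) and differed by 0.09 without tryptophan (adjusted p = 0.0675). ADAM17, a second sheddase, rose by 0.86 (SE 0.05) without tryptophan, and its difference of 0.13 (adjusted p = 0.0373) without histidine changed sign with scaling by RPM. SDC1 and SDC4 encode heparan sulfate proteoglycans that bind chemokines, and without histidine SDC1 fell by 1.3 (SE 0.06) and SDC4 rose by 1.33 (SE 0.05). Without tryptophan SDC1 differed by -0.03 (adjusted p = 0.525) and SDC4 rose by 0.18 (SE 0.05). DPP4, a peptidase that trims CXCL10 among others, fell by 0.25 (SE 0.05) without histidine and rose by 0.92 (SE 0.05) without tryptophan.

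Transcripts of the amino acid stress response were set beside the chemokines because both depletions were meant to impose such stress. Of the 6 genes, 5 were higher and none lower without tryptophan (36.1% and 34.8% of all genes), where DDIT3 rose by 1.99 (SE 0.05), CHAC1 by 1.56 (SE 0.05), TRIB3 by 1.06 (SE 0.05) and ASNS by 0.97 (SE 0.08), and ATF4 itself differed by 0.01 (adjusted p = 0.855). Without histidine 2 were higher and 3 lower (1 and 4 with RPM scaling), beside 39.1% and 38.2% of all genes. There DDIT3 rose by 0.69 (SE 0.06), while TRIB3 fell by 0.76 (SE 0.06), SESN2 by 0.51 (SE 0.05) and ATF4 by 0.28 (SE 0.05). ASNS differed by -0.10 (adjusted p = 0.327 by limma). All 6 were lower without histidine than without tryptophan, where 38.0% of all tested genes were called lower. The part of this difference in the chemokine values was not tested.

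For the 3 members with the most reads, the protein-coding genes with the closest pair of log2 differences were sought among 11014 candidates whose mean reached 100 normalized counts, in a fit of all 6 libraries. For CXCL16 (2.51 without histidine and 0.38 without tryptophan) they were PDLIM2, H2AC11 and RAB30, at distances of 0.0134 to 0.0808, and 59 candidates lay within 0.5. For CXCL8 (-0.22 and -2.88) they were CENPW, GTSE1 and UHRF1, at distances of 0.0502 to 0.0943, and 15 lay within 0.5. For CXCL3 (-1.12 and -1.56) they were DUT, HNRNPA1L3 and BDH2, at distances of 0.0338 to 0.0622, and 183 lay within 0.5. This is a likeness of 2 numbers per gene over 3 groups of libraries.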

How the data were processed

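RNA from 6 HT29 libraries was sequenced as stranded, poly(A)-selected cDNA. The authors aligned reads with STAR 2.7.10a to GRCh38 and counted them on exons with HTSeq 2.0.5 and gencode release 38. They deposited normalized counts, a non-negative signal obtained with DESeq2 size factors, in 1 table per depletion, and both tables hold the same untreated libraries. The treatment of molecular identifiers, strand and multiply mapped reads is not given in the sources used here. All deposited values were whole multiples of 1 step per library, so whole reads could be recovered for 100% of values (tolerance 0.1).

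Because the tables were normalized separately, each depletion was tested within its own table. The test was limma 3.58.1 (R 4.3.3, two-sided, with the mean-variance trend and without robust weights) on log2(normalized count + 1), a scale that makes changes of low genes look smaller. Genes needed a mean of 10, and p-values were adjusted over all tested genes by Benjamini-Hochberg with 0.05 as the threshold. The depletions were compared in a fit of the recovered reads of all 6 libraries after median-of-ratios scaling. Differences have 95% limma intervals, and ratios and shares of reads have 95% exact intervals. The settings varied were the pseudocount (0.5 and 8), the filter (none and a mean of 50), the trend, quantile and RPM scaling, edgeR 4.0.16 with TMM, DESeq2 1.42.0, a replicate block, the set of libraries fitted, and each library left out. The code was tested on simulated counts. Replicates differed by more than counting noise (chi-square of 1.94 to 9.74 per degree of freedom) and were kept as separate libraries. Motifs were sought with exact letters in RefSeq promoters.

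The members and lists were chosen with earlier results of these data known. The text names all members, up to 3 genes per list and comparison with the largest change past the threshold and a mean of 100 normalized counts in the higher group, a fixed set of genes by name (1 of them is not reported here), and the genes nearest in pattern. CXCR1, CXCR2, CXCR3, CXCR6, CCR6, CXCL12, CCL14, CCL15, CCL16, CCL22, ELAVL1, TNF, IL1B and the single marker genes are outside this rule and were chosen after their values were seen. Python 3.11.15 with pandas 2.3.3, numpy 2.4.6, scipy 1.17.1 and matplotlib 3.10.9 made the tables and plots.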

Additional observations from a re-analysis of the deposited data

Results flagged for a closer look

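For 6 of the 9 tested chemokines the effects of the 2 depletions differed by the test of the difference itself. That test was the contrast of histidine against tryptophan depletion in limma on all 6 libraries. Of all tested genes 38.7% were called higher and 38.0% lower by it. CXCL6 and CXCL17 passed the filter only through the untreated libraries, so the count of 6 is not a result about the chemokines as a list. The effect of histidine depletion was above that of tryptophan depletion by 1.60 on the log2 scale for CXCL1, 2.61 for CXCL6 (1.78 to 3.43 with a tryptophan-depleted library left out), 2.66 for CXCL8, 2.13 for CXCL16 and 1.96 for CCL20. It was below it for CXCL17, with a difference of -1.39, which rested on 4 and 13 reads and was lost without histidine-depleted replicate 1 (adjusted p = 0.118) or tryptophan-depleted replicate 2 (adjusted p = 0.0795). With 2 libraries per group no library could be judged to stand apart from its group.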

How the results depend on the processing

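Over 405 refits of single members, 380 kept their direction and side of the threshold, 14 lost a call, 5 gained one and 6 changed sign. Where the mean had to reach 50, fewer members could be tested, and 2 in place of 4 were lower without histidine, 2 in place of 6 lower without tryptophan, and 3 in place of 5 higher and 0 in place of 1 lower in the direct comparison. DESeq2 gave 2 lower without histidine and 0 lower in the direct comparison. A pseudocount of 8 also gave 0 lower in the direct comparison, and so did a fit of only the 4 depleted libraries, which gave 4 in place of 5 higher, since CXCL6 and CXCL17 were under the filter and not tested. Leaving out each library, with the lone library of a group assumed to vary like the others, gave 2 to 4 lower without histidine, 6 without tryptophan, and 0 to 1 lower and 5 to 6 higher in the direct comparison. Where the cause is not in the number of genes tested, the cause was not tested. Scaling by RPM moved the median of all genes to -0.18 without histidine, and turned CXCL2 (-0.000568) and CCL20 (-0.0588) there and CXCL2 in the direct comparison (-0.0582). With libraries left out, CXCL10 ranged from -0.512 to 0.0315 without tryptophan and from -0.287 to 0.0125 in the direct comparison, and CXCL2 from -0.0781 to 0.161 in the latter. None of these was called. Among the genes called in the other lists, IL17RA, ADAM17 and EPCAM turned sign without histidine under RPM, an alternative applied to them after values were seen.

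The replicate numbers did not pair the libraries (correlation of deviations from -0.04 to 0.04 between groups), and with a replicate block 4 members were lower and 1 higher without histidine, 6 and 1 without tryptophan, and 1 and 5 in the direct comparison. All members but CXCL2, CXCL3 and CXCL16 have 20 reads or fewer in at least 1 library, CXCL1 and CXCL8 among them after tryptophan depletion, which limits the precision of their folds.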
